A study of Mus musculus with 3 samples.

Results

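The genes of cholesterol synthesis and sterol sensing were read on 3 single-colour microarrays of cultured mouse spleen cells. Members were a list of 33 gene symbols, and 32 of them carried a probe of that name among the 36609 genes and other named transcripts on the array. They were 17 enzymes, 5 regulators of the SREBP transcription factors, 5 other SREBP targets and sterol carriers, and 5 LXR receptors and targets. The remaining symbol, Acat2, was not analysed here. Where a gene had several probes, its values come from the one that the scanner software called well above background on the most arrays, with ties settled by brightness. All 32 genes were well above background on all 3 arrays and 0 were saturated.

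The cells came from spleens of 6-month-old male MRL/MpJ animals and spent 3 h in culture with 1 of 3 additions, each read on 1 array: urine from the strain MRL/MpJ-Faslpr/lpr (called lpr urine), urine from MRL/MpJ (called MRL/MpJ urine), or PBS as the control. Urine had been pooled over 6 male donors of 6 months per strain and passed through a 0.22 µm filter. The lpr allele, which disables the death receptor gene Fas, was carried only by the donors of lpr urine, and the cells in every well were MRL/MpJ. All cells shared the same preparation, with red cells lysed by ammonium chloride, and were a mixture of spleen cell types. The labels do not say whether the wells came from 1 spleen or several, nor how much urine was added. With 1 array per condition no difference had a replicate check, no p-value was possible, and treatment, well and array cannot be told apart.

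Animal cells build cholesterol from acetyl-CoA through mevalonate, farnesyl diphosphate and squalene, and squalene epoxide is then closed to lanosterol and trimmed to cholesterol. The SREBP factors switch these enzyme genes on: when membrane sterol is low, the escort protein Scap carries the SREBP precursor to the Golgi for cleavage, and when sterol is high, the Insig proteins hold Scap and its cargo in the endoplasmic reticulum. The LXR receptors respond to oxysterols and switch on genes that export cholesterol or reduce its uptake. Dividing lymphocytes rely on the first arm, and the second is best known in macrophages.

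The promoters of 6 genes are shown because these genes had some of the largest differences in the set or, for Abca1, are the standard example of an LXR target. Each line gives the 250 bases before the annotated start, 5′ to 3′ on the gene's own strand, from RefSeq on build GRCm38.p6. Capitals mark the letters TCACNCCAC, one form of the sterol regulatory element to which SREBP binds, and CCAAT, the box bound by NF-Y, on either strand (ATTGG is CCAAT read on the other strand). The windows are Hmgcs1 at chr13:119690101-119690350 on the plus strand, Msmo1 at chr8:64733579-64733828 on the minus strand, Cyp51 at chr5:4104698-4104947 on the minus strand, Insig1 at chr5:28071162-28071411 on the plus strand, Mylip at chr13:45389492-45389741 on the plus strand, and Abca1 at chr4:53159896-53160145 on the minus strand.
Hmgcs1: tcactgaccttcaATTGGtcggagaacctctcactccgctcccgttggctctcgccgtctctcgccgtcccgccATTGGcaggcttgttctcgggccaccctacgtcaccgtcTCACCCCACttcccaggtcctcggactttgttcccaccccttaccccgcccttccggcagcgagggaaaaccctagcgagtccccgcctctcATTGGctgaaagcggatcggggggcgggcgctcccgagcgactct
Msmo1: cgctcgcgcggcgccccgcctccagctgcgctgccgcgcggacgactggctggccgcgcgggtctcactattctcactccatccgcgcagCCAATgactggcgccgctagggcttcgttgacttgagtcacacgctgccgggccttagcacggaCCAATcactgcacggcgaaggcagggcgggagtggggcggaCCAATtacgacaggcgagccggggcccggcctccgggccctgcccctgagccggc
Cyp51: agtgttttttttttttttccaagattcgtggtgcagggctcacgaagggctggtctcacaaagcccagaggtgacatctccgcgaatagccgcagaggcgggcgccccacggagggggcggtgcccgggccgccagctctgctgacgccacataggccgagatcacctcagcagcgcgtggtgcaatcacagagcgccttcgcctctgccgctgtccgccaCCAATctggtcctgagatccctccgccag
Insig1: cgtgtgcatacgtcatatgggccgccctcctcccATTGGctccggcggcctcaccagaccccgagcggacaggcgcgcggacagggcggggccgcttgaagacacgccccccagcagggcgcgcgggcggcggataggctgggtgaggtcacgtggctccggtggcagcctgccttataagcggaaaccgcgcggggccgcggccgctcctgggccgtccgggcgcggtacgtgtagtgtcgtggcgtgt
Mylip: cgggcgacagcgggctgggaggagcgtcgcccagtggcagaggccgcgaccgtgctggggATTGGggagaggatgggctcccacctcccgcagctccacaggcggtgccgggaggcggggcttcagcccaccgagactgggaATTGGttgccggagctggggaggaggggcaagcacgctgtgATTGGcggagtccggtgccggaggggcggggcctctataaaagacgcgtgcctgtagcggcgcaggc
Abca1: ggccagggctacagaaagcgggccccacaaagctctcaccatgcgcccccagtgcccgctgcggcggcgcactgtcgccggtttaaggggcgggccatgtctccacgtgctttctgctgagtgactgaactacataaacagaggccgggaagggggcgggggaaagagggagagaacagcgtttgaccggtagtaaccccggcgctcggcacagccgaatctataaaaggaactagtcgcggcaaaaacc

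Of the 32 genes, 24 had an entry in the promoter table, and the search ran over 300 bases, from 250 before to 50 after the start, on both strands. CCAAT was found in 20 of the 24 genes, against 41.1% of all 27025 genes in the table. Hmgcs1, Msmo1 and Mylip each held 3 such matches within the bases shown, Cyp51 and Insig1 held 1, and the Abca1 window held 0. TCACNCCAC was found in 1 gene, Hmgcs1, within the bases shown, and in 1.44% of all genes. A direct repeat of a short half-site with a fixed gap was found in 0 of the 24 genes and in 0.0518% of all genes in its exact form. This repeat was meant to stand for the pair of half-sites that LXR dimers bind. The gap searched is too short for that pair, because it was set between the shortened half-sites. The search could not find the pair in its standard form, so these values are not counts of LXR sites and say nothing about them. A match describes these letters only, and a window without one says nothing about whether the factor binds. Sqle, Fdps, Fdft1, Stard4, Npc1, Scd1, Scd2 and Abcg1 had no entry.

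The arrays differed in overall brightness, which touches every difference from PBS. The processed signal had a 75th percentile of 75.7 intensity units with lpr urine, 86.6 with MRL/MpJ urine and 157.5 with PBS. Probes well above background were 55.3% of all probes with lpr urine, 56.4% with MRL/MpJ urine and 59.0% with PBS. A level here is the log2 processed signal minus the array's own log2 75th percentile, and a log2 difference is the level on one array minus that on another. On this scale the median of all measured genes was 0.15 for lpr urine minus PBS, 0.13 for MRL/MpJ urine minus PBS and 0.00 for lpr minus MRL/MpJ urine. Scaling by the E1A spike-in controls, artificial RNAs of which each sample receives an equal amount, would lower every difference from PBS by 0.99 for lpr urine and 0.90 for MRL/MpJ urine, and no file shows which scale is right. Repeated spots of one probe would alone give a log2 difference an SD of 0.122 at log2 signals of 5 to 8 and 0.052 above 8, without the noise between arrays. These SDs come from the median spread over repeated probes, and the first rests on only 18 pairs of a probe and an array. The 6 B cell and 6 T cell markers were measured on every array, as the spleen label implies. Fewer cells of a type and less RNA per cell cannot be told apart in such bulk samples.

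With lpr urine, 6 of the 32 genes were at least 2-fold higher than with PBS and 5 were at least 2-fold lower. With MRL/MpJ urine, 6 were higher and 6 were lower. Across all measured genes, 18.5% were higher and 12% were lower with lpr urine, and 16.9% were higher and 11.1% were lower with MRL/MpJ urine, so the count of higher genes lay near the background share and the count of lower genes somewhat above it, a difference that was not tested. The genes that were lower were mostly enzymes of the pathway, with Sqle, Msmo1, Hmgcs1 and Cyp51 between 3.74- and 5.31-fold lower. The genes that were higher were Mylip, Insig1, Abca1, Tm7sf2, Scd2 and Abcg1 with either urine, and Mylip and Insig1 stood furthest from PBS. Both comparisons use the same PBS array, so the likeness of their values is not independent evidence.

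**Figure D1:**
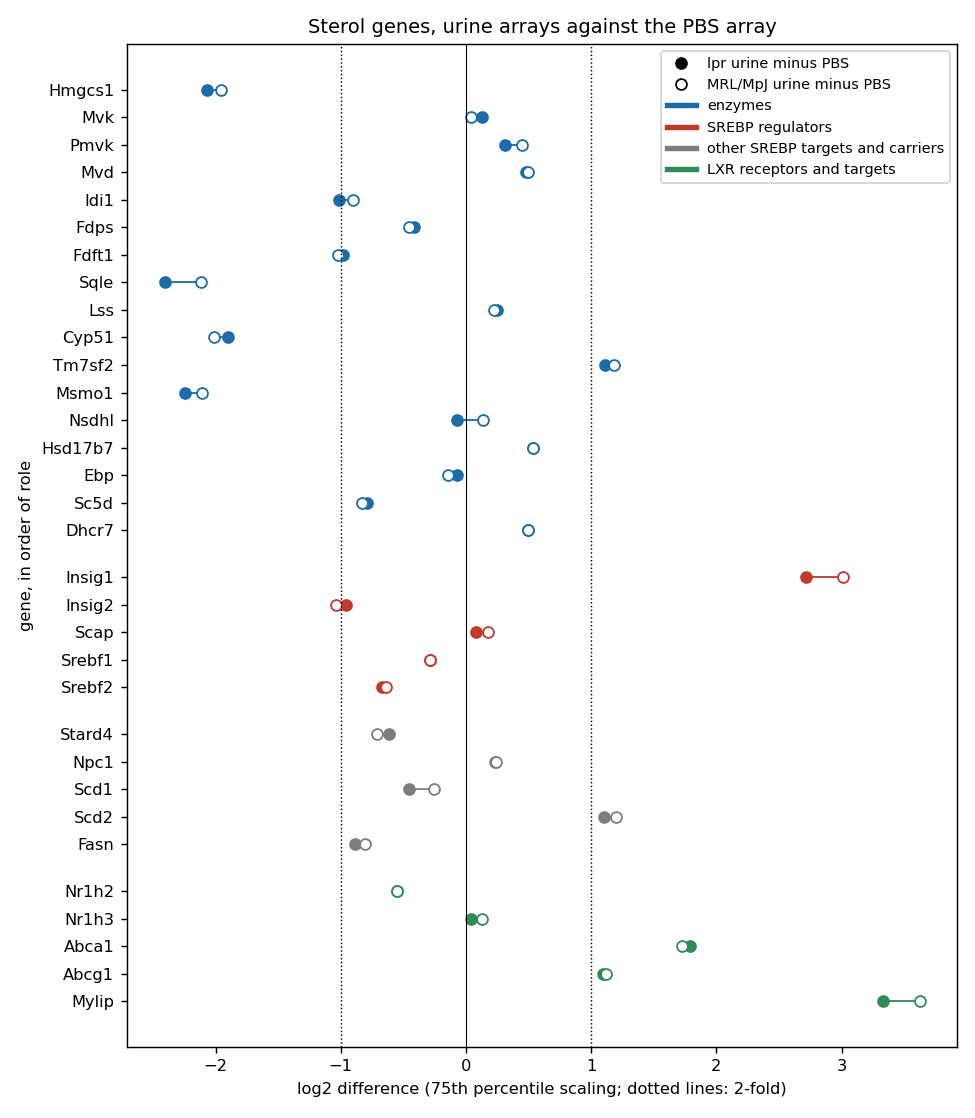
Log2 difference from the PBS array (x axis, 75th percentile scaling) of each of the 32 genes (y axis, grouped by role), with filled points for lpr urine and open points for MRL/MpJ urine, 1 array each. Dotted lines mark a 2-fold difference; Sqle, Msmo1, Hmgcs1 and Cyp51 lie furthest left and Mylip and Insig1 furthest right with both urines.

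Among the 17 enzymes, 5 were at least 2-fold lower and 1 was at least 2-fold higher with each urine, and the median log2 difference was -0.07 for lpr urine and -0.14 for MRL/MpJ urine. Across all measured genes, 12% were lower and 18.5% higher with lpr urine, and 11.1% were lower and 16.9% higher with MRL/MpJ urine. The difference from these shares was not tested. Sqle encodes squalene epoxidase, the first enzyme of the pathway to use oxygen. Its processed signal was 71.1 with lpr urine, 99.5 with MRL/MpJ urine and 785 with PBS. It was the lowest of the set with lpr urine, 5.31-fold lower than with PBS (log2 difference -2.41), and it was 4.34-fold lower with MRL/MpJ urine (-2.12). Of all measured genes, 1.14% had a smaller value of this difference with lpr urine and 1.63% with MRL/MpJ urine. The probe lies at chr15:59162688-59162747 of mouse build mm9, the build of all probe positions given here. Whether a probe falls in a coding exon or an untranslated region was not determined here.

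Msmo1 encodes the oxidase that removes methyl groups from position C4 of the sterol ring. The signal was 88.9 with lpr urine, 112 with MRL/MpJ urine and 878 with PBS. The difference from PBS was -2.25, or 4.75-fold lower, with lpr urine and -2.11, or 4.32-fold lower, with MRL/MpJ urine (chr8:67196982-67197041). The PBS array was the bright one, and the urine arrays lay close together. Cyp51, the demethylase that acts on lanosterol, had the same order of size. Its signal was 35.0 with lpr urine, 37.2 with MRL/MpJ urine and 272 with PBS. That is 3.74-fold lower than PBS with lpr urine (-1.90) and 4.03-fold lower with MRL/MpJ urine (-2.01; chr5:4082122-4082181).

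Hmgcs1, the cytosolic synthase of the precursor of mevalonate, was read at 171 with lpr urine, 212 with MRL/MpJ urine and 1495 with PBS. This was 4.19-fold lower than PBS with lpr urine (-2.07) and 3.87-fold lower with MRL/MpJ urine (-1.95). The files place this probe on an unlocalised part of chromosome 13, at 114793-114852 on the minus strand of chr13_random. A second probe of the gene, annotated to another transcript, pointed the other way (1.26 with lpr urine and 1.22 with MRL/MpJ urine).

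A pair of enzymes lay at the 2-fold line, on opposite sides for the 2 urines. Idi1, the isomerase of the isoprene units, had a signal of 96.3 with lpr urine, 120 with MRL/MpJ urine and 406 with PBS, which was 2.02-fold lower with lpr urine and 1.87-fold lower with MRL/MpJ urine (chr13:8891524-8891583). Fdft1, squalene synthase, had 128 with lpr urine, 142 with MRL/MpJ urine and 526 with PBS, which was 1.97-fold lower with lpr urine and 2.03-fold lower with MRL/MpJ urine (chr14:63765457-63765516). For both genes the urine arrays differed little from each other, by -0.12 for Idi1 and 0.04 for Fdft1 in log2 difference of lpr minus MRL/MpJ urine.

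Tm7sf2, a sterol reductase that acts after lanosterol, was the enzyme that was higher. Its signal was 88.9 with lpr urine, 107 with MRL/MpJ urine and 85.9 with PBS, so the unscaled signals were close and the scaled difference was 1.11 with lpr urine and 1.18 with MRL/MpJ urine (chr19:6062882-6062941). It was 2.15-fold higher than PBS with lpr urine and 2.27-fold higher with MRL/MpJ urine. Under spike-in scaling this gene and Scd2 and Abcg1 lay between 0.10 and 0.30 above PBS, and the fold was below 2 for all 3.

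The other 10 enzymes were within 2-fold of PBS with both urines. Sc5d, a sterol desaturase, was the lowest of them, at -0.79 with lpr urine and -0.83 with MRL/MpJ urine, and Hsd17b7, a sterol ketoreductase, was the highest, at 0.53 and 0.54. Pmvk and Mvd, which phosphorylate and then decarboxylate mevalonate products, had log2 differences of 0.31 and 0.48 with lpr urine and of 0.45 and 0.50 with MRL/MpJ urine. Mvk, mevalonate kinase, lay at 0.13 with lpr urine and 0.04 with MRL/MpJ urine. Fdps, farnesyl diphosphate synthase, lay at -0.42 with lpr urine and -0.45 with MRL/MpJ urine. On this scale the enzymes therefore did not move as a block, but the directions near 0 depend on the scaling. Before scaling, 16 of the 17 enzymes were dimmer on both urine arrays than on the PBS array, as were 26 of all 32 genes. The PBS array was the brightest as a whole and the share over all genes was not counted. These counts therefore say nothing particular about the sterol genes.

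Values at least 2-fold below PBS were found both before and after squalene epoxidation. The 8 enzymes up to and including squalene epoxidase had 3 members lower and 0 higher with each urine, with a median of -0.70 with lpr urine and -0.68 with MRL/MpJ urine. The 9 enzymes after it had 2 lower and 1 higher with each urine, with a median of -0.07 with lpr urine and 0.14 with MRL/MpJ urine. Across all measured genes, 12% were lower and 18.5% higher with lpr urine, and 11.1% were lower and 16.9% higher with MRL/MpJ urine. Whether either part of the pathway differs from these shares or from the other part was not tested. Among these late enzymes, Nsdhl, the dehydrogenase that works with Msmo1, lay at -0.07 with lpr urine and 0.14 with MRL/MpJ urine. Dhcr7, the reductase of the last step, lay at 0.49 with lpr urine and 0.50 with MRL/MpJ urine on its chosen probe, and at 2.50 and 2.61 on its second.

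**Figure D2:**
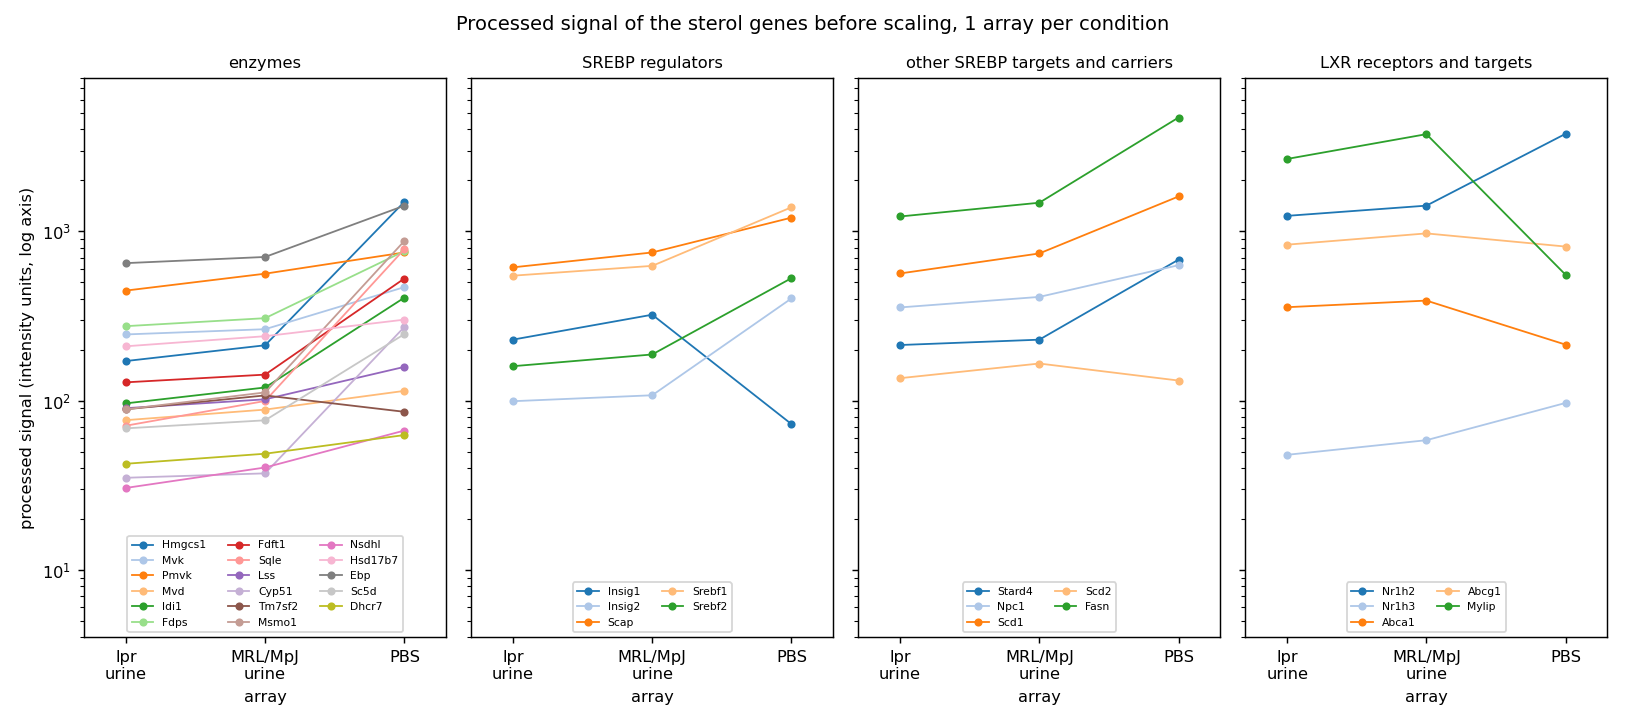
Processed signal before scaling (y axis, intensity units, log axis) of each gene for lpr urine, MRL/MpJ urine and PBS (x axis), 1 panel per role and 1 point per array. Most lines go up to PBS, which was the brightest overall; Insig1, Mylip, Abca1, Abcg1, Scd2 and Tm7sf2 were brighter on both urine arrays than on the PBS array.

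Before any scaling, 6 of the 32 genes were brighter on both urine arrays than on the PBS array, and they were the 6 that counted as higher. The array 75th percentiles, 75.7 with lpr urine, 86.6 with MRL/MpJ urine and 157.5 with PBS, place this cut close to the 2-fold line. Both rules are thus nearly the same cut on the same values, and the match is no separate evidence. The other 26 were dimmer on both urine arrays. All 32 were dimmer with lpr urine than with MRL/MpJ urine, whose array was brighter as a whole. The same counts over all genes were not made, so these say nothing particular about the sterol genes.

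Among the 5 SREBP regulators, the paralogous retention proteins lay on opposite sides of PBS. Insig1, itself a classical SREBP target, had a signal of 229 with lpr urine, 322 with MRL/MpJ urine and 72.7 with PBS. It was 6.57-fold higher than PBS with lpr urine (log2 difference 2.71) and 8.05-fold higher with MRL/MpJ urine (3.01; chr5:28404246-28404305). Of all measured genes, 97.3% had a smaller difference with lpr urine and 98.0% with MRL/MpJ urine. Insig1 was read from its only probe, so no second probe bears on it.

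Insig2 was lower, with a signal of 99.2 with lpr urine, 108 with MRL/MpJ urine and 402 with PBS. The difference was 1.95-fold lower with lpr urine (-0.96) and 2.05-fold lower with MRL/MpJ urine (-1.04; chr1:123201085-123201144), which puts it just inside the 2-fold line for lpr urine and just outside it for MRL/MpJ urine. Its 2 other probes lay at -0.85 and -0.45 with lpr urine and at -0.86 and -0.51 with MRL/MpJ urine. The remaining regulators were within 2-fold. Scap lay at 0.08 with lpr urine and 0.18 with MRL/MpJ urine. Srebf1 and Srebf2, which encode the SREBP factors themselves, lay at -0.29 and -0.67 with lpr urine and at -0.29 and -0.64 with MRL/MpJ urine.

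The genes that cleave, retain or degrade parts of the SREBP system were examined as a separate list of 8, all measured. With each urine 3 of them fell at least 2-fold below PBS and none exceeded it by as much. Across all measured genes 12% were that much lower with lpr urine and 11.1% with MRL/MpJ urine, a difference that was not tested. The list's median was -0.75 for lpr urine and -0.69 for MRL/MpJ urine. Erlin2, a membrane protein of sterol-regulated degradation in the endoplasmic reticulum, lay at -1.59 with lpr urine and -1.47 with MRL/MpJ urine. Its signals on the urine arrays were low, at 29.3 with lpr urine and 36.3 with MRL/MpJ urine. Mbtps2, the intramembrane protease that releases SREBP, lay at -1.45 with lpr urine and -1.34 with MRL/MpJ urine. Tmem97, a sterol-responsive membrane protein, lay at -1.14 with lpr urine and -1.35 with MRL/MpJ urine. The count of lower genes in this list was between 1 and 7 over the alternative ways of processing, and 0 were higher under any of them. It was 7 under spike-in scaling, where 8525 of 19370 measured genes were lower with lpr urine and 7971 of 19639 with MRL/MpJ urine.

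The 5 other SREBP targets and sterol carriers showed 1 gene higher and 0 lower with each urine. Across all measured genes 18.5% were higher with lpr urine and 16.9% with MRL/MpJ urine, so this count says nothing particular about the list. The higher gene was Scd2, a fatty acid desaturase, with a signal of 136 with lpr urine, 166 with MRL/MpJ urine and 131 with PBS. These signals were close before scaling. Scd2 was 2.15-fold higher than PBS with lpr urine (1.10) and 2.29-fold higher with MRL/MpJ urine (1.20, chr19:44381024-44381083). The related desaturase Scd1 lay at -0.45 with lpr urine and -0.26 with MRL/MpJ urine. Fasn, fatty acid synthase, lay at -0.89 with lpr urine and -0.81 with MRL/MpJ urine. Stard4, a soluble cholesterol carrier, lay at -0.62 with lpr urine and -0.71 with MRL/MpJ urine. Npc1, which exports cholesterol from lysosomes, lay at 0.23 with lpr urine and 0.24 with MRL/MpJ urine, but its other probes did not lie near these values.

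All 3 LXR target genes were at least 2-fold higher than PBS with either urine, while the receptors were within 2-fold. Of all measured genes 18.5% were that much higher with lpr urine and 16.9% with MRL/MpJ urine. The count of 3 became 2 with both urines under median scaling and normexp, where Abcg1 was under 2-fold, and 1 under spike-in scaling, where Abca1 was too. Mylip encodes the ubiquitin ligase IDOL, which marks lipoprotein receptors for degradation. Its signal was 2677 with lpr urine, 3749 with MRL/MpJ urine and 553 with PBS. That was the largest difference in the set, 10.1-fold higher with lpr urine (3.33) and 12.3-fold higher with MRL/MpJ urine (3.62; chr13:45506979-45507038). Of all measured genes, 98.4% had a smaller difference with lpr urine and 98.8% with MRL/MpJ urine. Mylip was read from its only probe.

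Abca1, the exporter that loads cholesterol onto apolipoprotein A-I, had a signal of 356 with lpr urine, 390 with MRL/MpJ urine and 214 with PBS. It was 3.46-fold higher with lpr urine (1.79) and 3.31-fold higher with MRL/MpJ urine (1.73; chr4:53043944-53044003), and its other probe lay at 1.74 with lpr urine and 1.92 with MRL/MpJ urine. Abcg1, which exports sterol to mature lipoprotein, had 834 with lpr urine, 972 with MRL/MpJ urine and 813 with PBS. It was 2.14-fold higher with lpr urine (1.09) and 2.18-fold higher with MRL/MpJ urine (1.12; chr17:31252580-31252639). The signals of Abcg1 were close before scaling, unlike those of Mylip. Nr1h2, the LXR beta gene, lay at -0.55 with both urines, and Nr1h3, the LXR alpha gene, lay at 0.04 with lpr urine and 0.13 with MRL/MpJ urine.

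A list of 6 further LXR targets showed 1 gene higher and 0 lower with each urine, with a median of 0.28 for lpr urine and 0.30 for MRL/MpJ urine. Across all measured genes 18.5% were higher with lpr urine and 16.9% with MRL/MpJ urine, so this count says nothing particular about the list. Pltp, the phospholipid transfer protein, lay at 1.45 with both urines. Arl4c, a small GTPase, lay at -0.96 with lpr urine and -0.91 with MRL/MpJ urine. Lpl, lipoprotein lipase, lay at 0.77 with lpr urine and 0.78 with MRL/MpJ urine. The median of this list was above 0 here but below 0 under median scaling and spike-in scaling with both urines, and under normexp background correction with lpr urine.

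**Figure D3:**
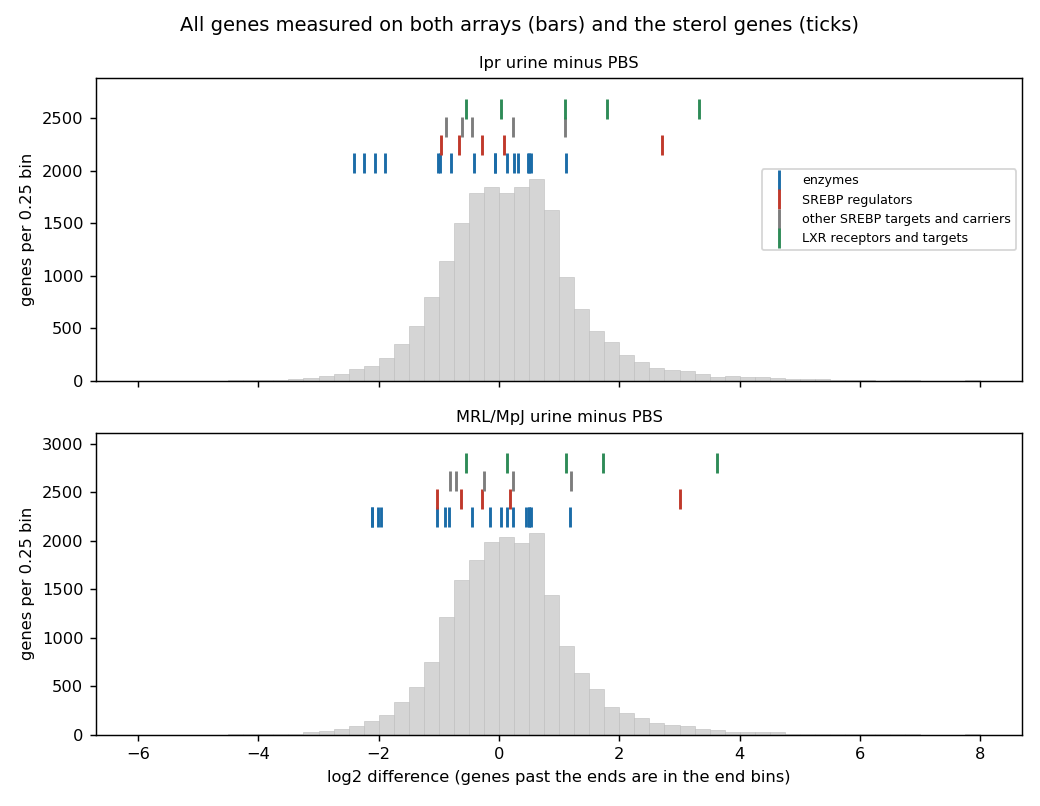
Distribution of the log2 difference from PBS (x axis, 75th percentile scaling) over all measured genes (bars; y axis, genes per bin), with each sterol gene as a tick coloured by role, 1 panel for lpr urine and 1 for MRL/MpJ urine. Sqle is the leftmost enzyme tick, with 1.14% of genes below it for lpr urine, and Mylip the rightmost LXR tick, with 98.4% of genes below it.

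Genes that make oxysterols or handle cholesterol were examined as a list of 12, of which 10 were measured on both arrays in each comparison against PBS. All 10 were within 2-fold of PBS, and their median was -0.13 for lpr urine and -0.01 for MRL/MpJ urine. Under spike-in scaling 6 of the 10 were at least 2-fold lower with lpr urine (median -1.12) and 5 with MRL/MpJ urine (median -0.90). Over all measured genes, that scaling left 8525 of 19370 lower with lpr urine and 7971 of 19639 with MRL/MpJ urine. Under median scaling 1 gene of the list was lower with each. The 2 genes that were measured on the urine arrays and were not well above background on the PBS array both make oxysterols. Ch25h, the hydroxylase that makes an immune oxysterol in macrophages, had a signal of 50.8 with lpr urine, 51.4 with MRL/MpJ urine and 0.978 with PBS, so lpr urine was at least 23.6-fold higher and MRL/MpJ urine at least 20.9-fold higher. Cyp27a1, a mitochondrial sterol hydroxylase, had 8.44 with lpr urine, 10.7 with MRL/MpJ urine and 1.39 with PBS, so lpr urine was at least 3.93-fold higher and MRL/MpJ urine at least 4.34-fold higher. These bounds take the higher of the PBS probe's own signal and the lowest signal called well above background on that array. They hold under 75th percentile scaling, and spike-in scaling would lower them by 0.99 with lpr urine and 0.90 with MRL/MpJ urine on the log2 scale. For Cyp27a1 they are 1.97 and 2.12 on that scale. Its urine signals were near the lowest ones called well above background, 4.43 with lpr urine and 4.46 with MRL/MpJ urine. Of the rest, Gramd1b, a sterol transporter of membrane contact sites, was the highest, at 0.79 with lpr urine and 0.63 with MRL/MpJ urine. Osbpl2 and Osbp, oxysterol-binding lipid carriers, lay at -0.71 and -0.38 with lpr urine and at -0.71 and -0.49 with MRL/MpJ urine.

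Marker lists of macrophages, B cells and, by 1 gene, erythroid cells had a larger share of higher genes than the background. That share was 18.5% with lpr urine and 16.9% with MRL/MpJ urine, and the difference was not tested. Of 8 macrophage markers, 4 exceeded PBS at least 2-fold with each urine and the rest were within 2-fold; the median was 0.94 for lpr urine and 0.98 for MRL/MpJ urine. Their summed level relative to the 75th percentile was 27.2 with lpr urine, 24.6 with MRL/MpJ urine and 15.3 with PBS. Of 6 B cell markers, 2 were higher with lpr urine and 3 with MRL/MpJ urine, while Cd79b lay below PBS, at -0.34 and -0.23. The summed level of the 6 was 302 with lpr urine, 318 with MRL/MpJ urine and 199 with PBS. Of 6 T cell markers 0 were higher or lower, with sums of 252 with lpr urine, 239 with MRL/MpJ urine and 259 with PBS. Of 6 neutrophil markers, 1 was higher with each urine and 1 was lower with lpr urine, with sums of 451 with lpr urine, 431 with MRL/MpJ urine and 253 with PBS. Of 5 erythroid markers, 4 were measured and 1 was higher with each urine, with sums of 4.29 with lpr urine, 3.81 with MRL/MpJ urine and 2.63 with PBS. Under spike-in scaling 0 macrophage and 0 B cell markers were higher with either urine. On that scale 1 B cell marker was lower with each, and 3 of 6 T cell markers were lower with each (median -0.95). Over all measured genes, 8525 of 19370 were then lower with lpr urine and 7971 of 19639 with MRL/MpJ urine. The part of cell makeup in the values of the sterol genes was not tested.

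Between the 2 urines, 0 of the 32 genes were at least 2-fold higher and 0 were at least 2-fold lower with lpr urine than with MRL/MpJ urine. Across all measured genes, 0.34% were higher and 0.06% were lower by this rule, so a count of 0 of 32 says nothing particular about these genes. The differences lay between -0.29 and 0.11, with a median of -0.02, and 21 genes were below 0. The lowest were Sqle at 1.22-fold, Insig1 at 1.23-fold and Mylip at 1.22-fold lower with lpr urine, each -0.29 on the log2 scale, and Cyp51 was the highest at 0.11. Insig1 and Mylip were thus a little closer to PBS with lpr urine than with MRL/MpJ urine and Sqle a little further from it. The differences of Sqle, Insig1 and Mylip exceed the SD that repeat spots give at such signals, but these genes were picked as the lowest of the 32. Without a second array per urine, their size relative to the spread between cultures is unknown.

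Several genes had more than 1 probe, and the probes did not all give one value. Of the 32 genes, 10 had 1 probe and 22 had several, and 19 had at least 2 probes that were measured on both arrays. The sign of the difference from PBS was shared by all measured probes of a gene in 15 of 19 genes with lpr urine and in 14 of 19 with MRL/MpJ urine. The genes with mixed signs were Ebp, Hmgcs1, Lss and Npc1 with both urines and also Msmo1 with MRL/MpJ urine.

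**Figure D4:**
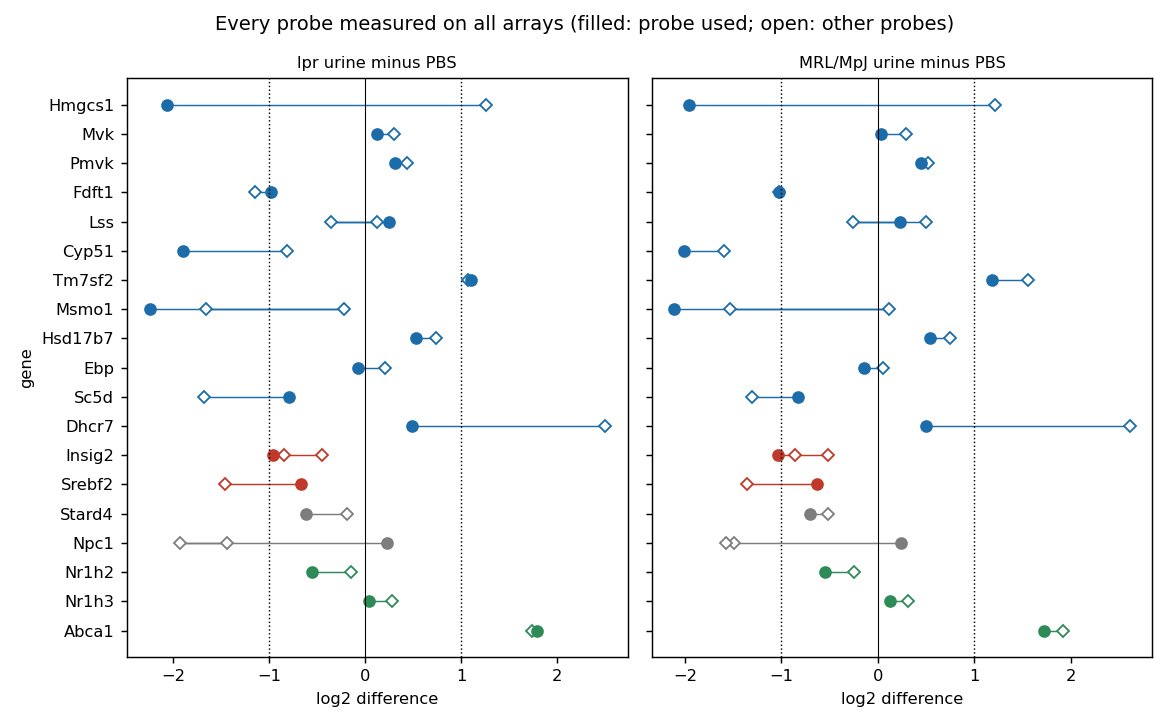
Log2 difference from PBS (x axis, 75th percentile scaling) of every measured probe of each gene that had several measured probes (y axis), for lpr urine and MRL/MpJ urine, with filled points for the chosen probe, open diamonds for the others and colours for the 4 roles. The probes of Abca1 lie close together, while those of Hmgcs1, Npc1 and Dhcr7 lie apart.

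The chosen probe of Hmgcs1 gave -2.07 with lpr urine and -1.95 with MRL/MpJ urine, whereas the second gave 1.26 with lpr urine and 1.22 with MRL/MpJ urine. The signals of the second probe were 52.9 with lpr urine, 58.8 with MRL/MpJ urine and 46.0 with PBS, far dimmer on PBS than the chosen one. The probes of Cyp51 shared their sign, with -0.81 with lpr urine and -1.60 with MRL/MpJ urine on the other probe. Msmo1 had other probes at -1.65 and -0.22 with lpr urine and at -1.53 and 0.12 with MRL/MpJ urine. Srebf2, within 2-fold on its chosen probe, lay at -1.46 with lpr urine and -1.35 with MRL/MpJ urine on the other. Sc5d likewise lay at -1.68 with lpr urine and -1.31 with MRL/MpJ urine on its other probe.

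The chosen probe of Npc1 read 355 with lpr urine, 410 with MRL/MpJ urine and 631 with PBS, and its 2 other measured probes lay at -1.44 and -1.93 with lpr urine and at -1.49 and -1.58 with MRL/MpJ urine. Lss, lanosterol synthase, read 90.2 with lpr urine, 102 with MRL/MpJ urine and 158 with PBS, with other probes at 0.12 and -0.35 with lpr urine and at 0.50 and -0.25 with MRL/MpJ urine. Ebp, a sterol isomerase, read 649 with lpr urine, 706 with MRL/MpJ urine and 1417 with PBS and lay at -0.07 with lpr urine and -0.14 with MRL/MpJ urine on its chosen probe. A second probe of Nsdhl was not well above background on either urine array and read 35.5 with PBS, which makes it at least 3.85-fold lower with lpr urine and at least 4.37-fold lower with MRL/MpJ urine. For these genes the direction or size depends on the probe, and whether the probes read different transcripts was not tested.

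**Figure D5:**
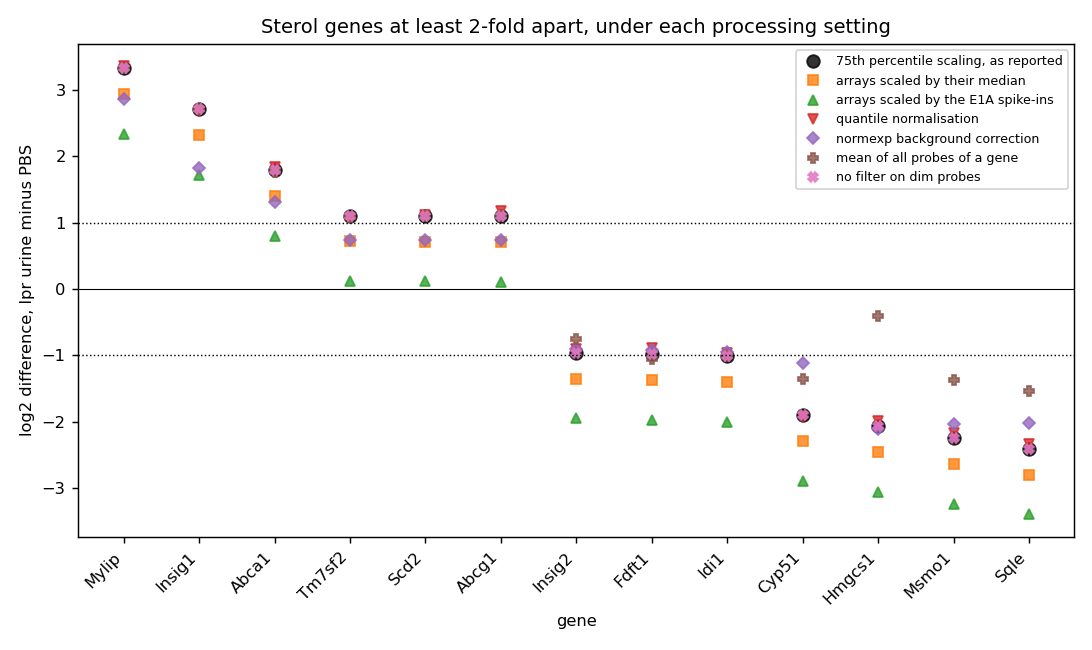
Log2 difference of lpr urine minus PBS (y axis) for the 13 sterol genes that were at least 2-fold from PBS with either urine (x axis), under 75th percentile scaling (black circles) and 6 alternative ways of processing. Dotted lines mark a 2-fold difference. Mylip and Insig1 stay at least 2-fold higher and Sqle, Msmo1 and Cyp51 at least 2-fold lower under all of them, while Tm7sf2, Scd2 and Abcg1 fall below 2-fold under some.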

How the data were processed

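Gene expression was measured on 3 Agilent single-colour arrays of design 074809, all on 1 slide, 1 per condition. The deposited unit is intensity, per the file headers: the authors' software, Agilent Feature Extraction 12.0.3.1 by the submitters' processing notes too, subtracted background within each array and did not normalise between arrays. From 59305 non-control spots, spots with outlier flags were dropped and repeated spots averaged. Levels were log2 intensity minus each array's log2 75th percentile. A gene was called at a 2-fold difference with its probe well above background on both arrays. All genes of the list are accounted for, and from 5 related lists up to 3 genes furthest from PBS per comparison are named. A gene of 1 related list is not reported here and was left out of that list's counts. Members and lists were chosen with earlier results of these data known. The calling step was tested on simulated data. The 6 alternatives were median, spike-in and quantile scaling, normexp background correction (limma 3.58.1, offset 50), the mean of a gene's probes, and no filter on dim probes. The number of arrays limits the precision.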

Additional observations from a re-analysis of the deposited data

Results flagged for a closer look

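A pair of genes had a second probe, outside the values the comparisons use, that was well above background on every array and at least 2-fold higher with both urines than with PBS, where the chosen probe was not. The second probe of Hmgcs1 differed from PBS by 1.26 on the log2 scale with lpr urine and by 1.22 with MRL/MpJ urine, with signals of 52.9, 58.8 and 46.0 intensity units on the lpr urine, MRL/MpJ urine and PBS arrays. The second probe of Dhcr7 differed by 2.50 with lpr urine and by 2.61 with MRL/MpJ urine, with signals of 43.7 with lpr urine, 54.0 with MRL/MpJ urine and 16.1 with PBS. Its chosen probe gave 42.4 with lpr urine, 48.6 with MRL/MpJ urine and 62.6 with PBS, or 0.49 and 0.50 above PBS on the log2 scale. What these second probes detect was not tested.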

How the results depend on the processing

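The counts of genes at least 2-fold apart between the urines were 0 under every alternative run, and no count or enzyme median changed sign. Against PBS, the 6 higher genes with lpr urine became 3 under median scaling, 2 under spike-in scaling and 3 under normexp, and the 6 with MRL/MpJ urine became 3, 2 and 3 in the same order. The 5 lower genes with lpr urine became 11 under median scaling, 17 under spike-in scaling and 8 with the mean of all probes. The 6 with MRL/MpJ urine became 11 under median and 16 under spike-in scaling. Over all 19370 measured genes with lpr urine, the lower count went from 2319 to 4277 under median scaling and 8525 under spike-in scaling. Over all 19639 with MRL/MpJ urine it went from 2181 to 4120 and 7971. The mean of all probes left 2272 genes lower with lpr urine. The enzyme median with lpr urine, -0.07, became -0.46 under median scaling, -1.06 under spike-in scaling, -0.21 under quantile normalisation, -0.36 under normexp and -0.40 with the mean of probes. The enzyme median with MRL/MpJ urine, -0.14, became -0.51, -1.04, -0.066, -0.34 and -0.37 under these alternatives in the same order. Between the urines it was -0.10 under spike-in scaling. By construction, median scaling moved every difference from PBS by -0.39 with lpr urine and -0.37 with MRL/MpJ urine, and spike-in scaling by -0.99 and -0.90. For normexp, quantile normalisation and the mean of probes the cause was not tested. Of all called genes, the share that was higher with lpr urine was 60.7% here, 33.5% under median scaling, 11.3% under spike-in scaling, 43.1% under normexp and 82.2% with no filter on dim probes, and with MRL/MpJ urine it was 60.3%, 33.7%, 12.2%, 45.8% and 68.9%. Between the urines it was 85.0% here, 60.0% under spike-in scaling, 66.7% under normexp and 59.8% with no filter.

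Sqle, Msmo1, Cyp51, Insig1 and Mylip stayed at least 2-fold from PBS with both urines under all 6 alternatives. Hmgcs1 lay at -0.40 with lpr urine and -0.37 with MRL/MpJ urine with the mean of its probes. Abca1 lay at 0.80 with lpr urine and 0.83 with MRL/MpJ urine under spike-in scaling. Tm7sf2, Scd2 and Abcg1 were under 2-fold with median scaling, spike-in scaling and normexp, and remained above 0. No paired analysis was possible because each group had 1 array, and no array could be left out. Detection reached down to 4.43 intensity units with lpr urine, 4.46 with MRL/MpJ urine and 4.47 with PBS, and repeat spots below a log2 signal of 5 give a difference an SD of 0.372.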

Other observations

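Neighbouring branches of the pathway held genes on both sides of PBS. Of 11 genes of fatty acid synthesis, which SREBP also drives, 10 were measured on both arrays of each comparison against PBS. With lpr urine 2 were higher and 1 was lower (median -0.23), and with MRL/MpJ urine 0 were higher and 1 was lower (median -0.18). Over all genes 18.5% were higher and 12% lower with lpr urine, and 16.9% higher and 11.1% lower with MRL/MpJ urine, so these counts say nothing particular about the list. Fads1, a desaturase of polyunsaturated fatty acids, lay at -1.42 with lpr urine and -1.11 with MRL/MpJ urine. Its neighbour in the pathway Fads2 lay at 1.10 and 0.78 and the elongase Elovl6 at 1.10 and 0.69. Unscaled signals on the lpr urine, MRL/MpJ urine and PBS arrays were close, at 9.40, 8.64 and 9.15 for Fads2 and 239, 205 and 232 for Elovl6. Fads2 was dim, in the range where repeat spots give a difference an SD of 0.372. Fads1 was in that range on the urine arrays, at 11.3 with lpr urine and 16.0 with MRL/MpJ urine, and read 63.1 with PBS. Aacs, an acetoacetyl-CoA synthetase, lay at -0.72 with lpr urine and -0.78 with MRL/MpJ urine. With each urine 0 genes of this list were higher and 4 were lower under median scaling, and 0 were higher and 5 lower under spike-in scaling. Over all measured genes, spike-in scaling left 8525 of 19370 lower with lpr urine and 7971 of 19639 with MRL/MpJ urine.

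Of 9 genes of the isoprenoid branch, all measured, 1 was higher and 1 was lower with lpr urine, and 1 was higher and 0 were lower with MRL/MpJ urine, with a median of -0.22 for both. Under median scaling 3 were lower with each urine, and under spike-in scaling 6 of the 9 were lower and 0 higher with each. Spike-in scaling also left 8525 of all 19370 measured genes lower with lpr urine and 7971 of 19639 with MRL/MpJ urine. Ggps1, which makes geranylgeranyl diphosphate for protein prenylation, lay at 1.31 with lpr urine and 1.41 with MRL/MpJ urine. Rce1, the protease that trims prenylated proteins, lay at -1.01 with lpr urine and -0.86 with MRL/MpJ urine. Pdss1, a synthase of the ubiquinone side chain, lay at -0.87 with lpr urine and -0.92 with MRL/MpJ urine, and Fntb, the beta subunit of farnesyltransferase, at -0.86 and -0.94. Fntb was dim on the urine arrays, at 15.4 with lpr urine and 16.7 with MRL/MpJ urine. Between the urines 0 genes of any of the 5 related lists were at least 2-fold apart.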
